A study of Mus musculus with 13 samples.

Results

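The genes described here are 8 regulators of apoptosis: the pro-survival genes Bcl2, Bcl2l1 and Mcl1, the BH3-only genes Bcl2l11 and Bid, the effector gene Bak1, the initiator caspase gene Casp8 and the caspase inhibitor gene Xiap. They were chosen by symbol, with no threshold on measured values, as apoptosis genes that are not classical p53 targets. All 8 were found among the 32544 gene symbols of the count table. The 13 libraries were made by Quant-seq, which sequences the 3′ end of polyadenylated RNA, from the lungs of wild-type male C57BL/6J mice bought at 7 weeks of age. Normoxia was 21% oxygen (7 libraries) and Hyperoxia was 80% oxygen (6 libraries), each for 5 days, and lungs of both groups were perfused and flash frozen. Each library is whole lung, so fewer cells of a type and less RNA per cell cannot be told apart. The labels number the samples within a group, and nothing in them ties a number to a single animal. The p-values therefore measure the spread between these samples.

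Cells of the lung die by apoptosis through a pair of connected routes. In the mitochondrial route, BH3-only proteins such as BIM (the product of Bcl2l11) bind and neutralize pro-survival BCL2 proteins, which frees BAX and BAK to open the outer mitochondrial membrane and release cytochrome c. In the receptor route, ligand-bound death receptors activate caspase-8, which can cleave BID and so engage the mitochondria, while XIAP binds active caspases and holds them in check. Death of the alveolar epithelium and endothelium is a known feature of lung injury by oxygen.

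In the hyperoxic lung, Bcl2l1 was 6.39-fold higher (95% interval 4.07 to 10.02) and Mcl1 was 1.68-fold higher (1.41 to 2.02) than in normoxia. Bcl2l11 was 0.701-fold the normoxic level (0.551 to 0.891), a call that held in 7 of 11 other settings and was lost when any of 10 of the 13 libraries was left out. Bcl2, Bid, Casp8 and Xiap did not pass the test, and Bak1 did not pass the filter on low counts. The test was edgeR's quasi-likelihood test on the counts, adjusted by Benjamini-Hochberg over all 12496 genes tested, with a threshold of 0.05. Among all genes tested, 11.8% were called higher and 10.8% were called lower. Of the 7 members tested, 2 were called higher and 1 was called lower. The median log2 fold change was 0.32 over these 7 and −0.03 over all genes tested.

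Total counts ran from 1607111 to 3387736 in normoxia and from 2029006 to 4540288 in hyperoxia. Hyperoxia replicate 1 stood apart: its log2 CPM (counts scaled to a common library total) correlated with those of the other libraries at r of 0.721 to 0.833, against 0.854 to 0.967 among the other 12 libraries. Its share of mitochondrial transcripts was 0.944%, against 1.94% to 3.24% in the rest. The library names carry letters that run from B to M in 5 normoxia and 3 hyperoxia libraries and from O to S in 2 and 3 libraries. What the letters stand for is not given, and values within each letter set are given for the 7 tested members. The lung label was checked against markers: surfactant and other alveolar type 2 genes summed to between 2890 and 22990 CPM in every library.

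The promoters of the 3 members that passed the test are shown to set the changes beside the DNA upstream of each gene. Each is the 250 bases before the RefSeq transcription start on GRCm38.p6, 5′ to 3′ on the gene's strand. Capitals mark a FOXO motif (TGTTTAC) or a GC box (GGGCGG) on either strand. Bcl2l1 lies at chr2:152831729-152831978 (minus strand, upstream of the most distal of its 3 listed starts), Mcl1 at chr3:95658471-95658720 (plus strand) and Bcl2l11 at chr2:128125788-128126037 (plus strand, the distal of 2 starts).
Bcl2l1: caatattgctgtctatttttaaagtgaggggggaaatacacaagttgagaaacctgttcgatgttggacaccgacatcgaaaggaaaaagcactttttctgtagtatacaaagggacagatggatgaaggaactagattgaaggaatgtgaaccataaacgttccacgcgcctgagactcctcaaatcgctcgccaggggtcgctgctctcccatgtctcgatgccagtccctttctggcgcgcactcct
Mcl1: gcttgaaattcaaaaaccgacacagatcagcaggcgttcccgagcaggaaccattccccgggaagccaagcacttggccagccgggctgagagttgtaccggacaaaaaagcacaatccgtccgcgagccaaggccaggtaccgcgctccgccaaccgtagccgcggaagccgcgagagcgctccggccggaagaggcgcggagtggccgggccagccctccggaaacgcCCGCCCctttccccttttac
Bcl2l11: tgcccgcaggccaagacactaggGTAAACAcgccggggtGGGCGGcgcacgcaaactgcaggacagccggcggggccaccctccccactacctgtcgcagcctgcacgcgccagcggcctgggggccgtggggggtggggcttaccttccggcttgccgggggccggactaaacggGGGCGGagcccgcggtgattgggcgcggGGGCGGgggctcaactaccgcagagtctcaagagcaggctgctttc

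Of the 3 windows shown, those of Bcl2l1 and Mcl1 held few of the motifs searched. The Bcl2l1 window held none of 6 motifs, and the Mcl1 window held a single GC box, which starts 20 bases before the transcription start. The Bcl2l11 window held 3 GC boxes, 211, 74 and 46 bases before the start, and a FOXO motif 227 bases before it. In the windows of the members that were not called, GC boxes numbered 7 for Bcl2, 3 for Bid, 1 for Xiap and 0 for Bak1 and Casp8. Of the 8 members, 1 held the FOXO motif, which occurred in 3.17% of 32851 promoter windows of the same length. GC boxes, the letters bound by SP1, occurred in 5 of the 8 members and in 32.7% of all windows. Each member gave 1 window, at the RefSeq start nearest its GENCODE gene start, while the 32851 windows hold several starts for some genes. For Casp8 and Xiap the start used lay 7128 and 8157 bases from the GENCODE gene start. AP-1 (TGANTCA, 6.75% of windows), STAT (TTCNNNGAA, 7.02%), CRE (TGACGTCA, 1.55%) and E-box (CACGTG, 6.02%) motifs were in 0 of the 8 windows. A match describes the letters only, and no match says only that these letters are not in this window.

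Bcl2l1 encodes BCL-XL, a pro-survival protein of the outer mitochondrial membrane. It lies on chromosome 2 (152780668 to 152831728, minus strand, GRCm38), with no annotated gene overlapping it. Its level ran from 11.7 CPM to 48.2 CPM in normoxia, with a median of 40.4 CPM. In hyperoxia it ran from 124 CPM to 329 CPM, with a median of 254 CPM. Every hyperoxic library was above every normoxic library, and the lowest hyperoxic count was 396 reads against a highest normoxic count of 146 reads. The normoxic mean was 36.3 ± 14.1 CPM (SD, n = 7), and the hyperoxic mean was 232 ± 76.9 CPM (SD, n = 6). The log2 fold change was 2.68 (SE 0.31, adjusted p = 1.92e-05). Groups with no overlap and a higher hyperoxic level were found for 5.6% of all genes tested, and the opposite for 5.23%. Among the 7 members tested, 2 showed the first pattern, Bcl2l1 and Mcl1, and 0 showed the second.

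Within both groups Bcl2l1 was lower in the libraries lettered O to S. Normoxia replicates 6 and 7 gave 11.7 CPM and 23.5 CPM, against 35.0 CPM to 48.2 CPM in the other 5 normoxia libraries. Hyperoxia replicates 4 to 6 gave between 124 CPM and 251 CPM, against 256 CPM to 329 CPM in replicates 1 to 3. On the log2 CPM scale, hyperoxic libraries averaged 2.69 above normoxic ones within B to M and 3.30 above them within O to S. Its coefficient of variation was 38.8% in normoxia and 33.2% in hyperoxia, the widest relative spread of the 7 tested members in normoxia.

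**Figure D1:**
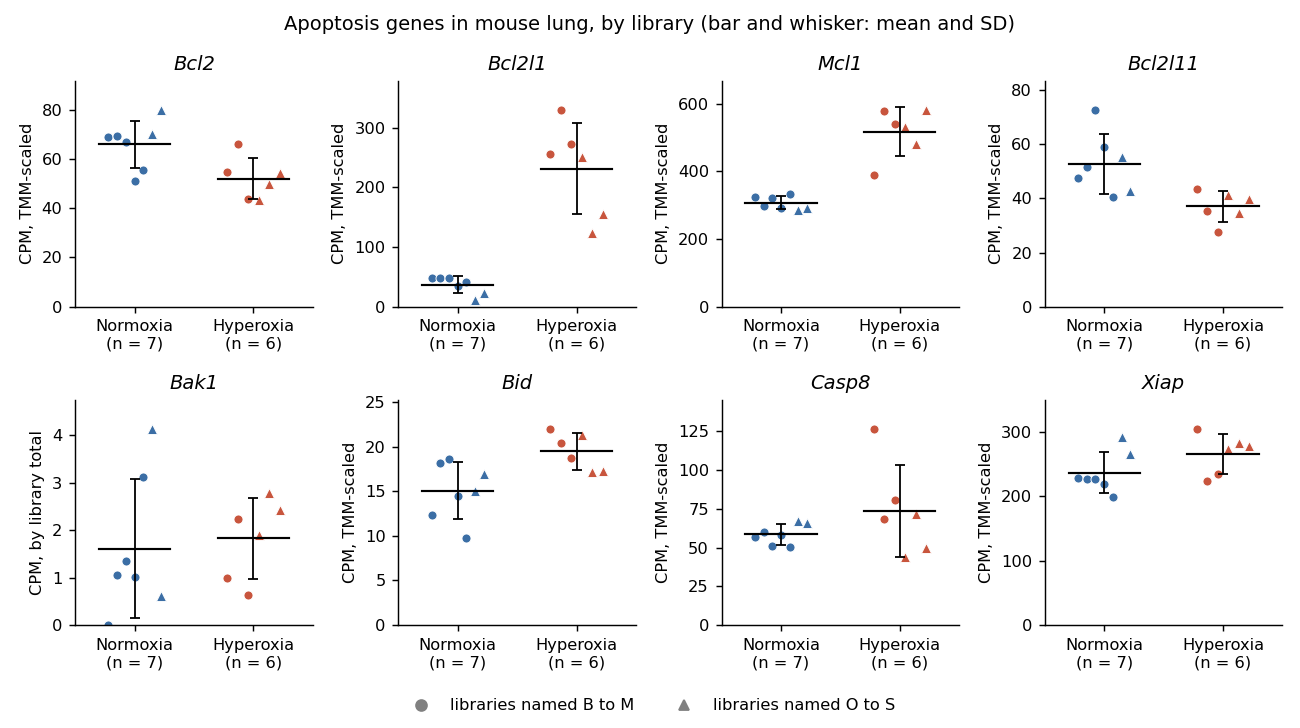
Level of each of the 8 apoptosis genes (y axis, CPM, starting at 0) in 7 normoxia and 6 hyperoxia libraries, with a bar at the mean and a whisker of 1 SD; circles are libraries lettered B to M and triangles those lettered O to S. Bcl2l1 and Mcl1 are the members whose groups do not overlap, and the Casp8 mean in hyperoxia includes a library at 126 CPM.

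Mcl1 encodes MCL-1, a short-lived pro-survival protein. The gene lies on chromosome 3 (95658788 to 95663176, plus strand), with no overlapping gene. Normoxic libraries gave 287 CPM to 334 CPM, with a median of 298 CPM. Hyperoxic libraries gave 388 CPM to 580 CPM, with a median of 536 CPM. The groups did not overlap, and the lowest hyperoxic value was that of Hyperoxia replicate 1. Mcl1 rose from a mean of 307 ± 18.9 CPM (SD, n = 7), reaching 517 ± 72.8 CPM (SD, n = 6), with a log2 fold change of 0.75 (SE 0.12, adjusted p = 4.2e-04). Mcl1 had the tightest normoxic spread of the 7 tested members, with a coefficient of variation of 6.17%, which was 14.1% in hyperoxia. The difference on the mean log2 CPM scale (hyperoxia minus normoxia) was 0.66 in letters B to M and 0.87 in letters O to S.

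Bcl2 is the founding pro-survival member of the family. It lies on chromosome 1 (106538178 to 106714274, minus strand), and the annotated antisense gene D630008O14Rik touches an exon of it. Whether the counting used strand is not given in the sources used here, so reads of such a pair may be mixed. Its level ran from 51.1 CPM to 80.0 CPM in normoxia (median 69.1 CPM) and from 43.6 CPM to 66.1 CPM in hyperoxia (median 52.3 CPM). The groups overlapped, and the log2 fold change of −0.35 (95% interval −0.65 to −0.04, adjusted p = 0.10) did not pass the test. The same difference was −0.20 within B to M and −0.60 within O to S. The 3 pro-survival members thus gave 2 calls, both higher, and Bcl2 gave a negative value that did not pass.

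Bcl2l11 encodes BIM, a BH3-only protein that binds all the main pro-survival proteins. It lies on chromosome 2 (128126038 to 128162547, plus strand), with no overlapping gene. Normoxic libraries ran from 40.4 CPM to 72.6 CPM (median 51.7 CPM), and hyperoxic libraries from 27.4 CPM to 43.4 CPM (median 37.7 CPM). The groups overlapped: Hyperoxia replicates 1 and 4 (43.4 CPM and 41.5 CPM) were above the lowest normoxic library, and replicate 1 was also above Normoxia replicate 7 (42.8 CPM). Bcl2l11 fell from a mean of 52.8 CPM (SD 10.97, n = 7), reaching 37.1 CPM (SD 5.79, n = 6), with a log2 fold change of −0.51 (SE 0.16, adjusted p = 0.0335). The sign was negative in all 24 alternatives run, but the adjusted p passed the threshold in 10 of them. The call was lost when any of 10 libraries was left out, with the smallest change (−0.40, adjusted p = 0.102) without Normoxia replicate 3, the highest library. Without a filter on low counts the value was −0.47 (adjusted p = 0.082). On the mean log2 CPM scale, the Bcl2l11 difference was −0.60 in letters B to M and −0.33 in letters O to S.

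B cell markers were lower in hyperoxia, as were Bcl2l11 and the Bcl2 value, which did not pass the test. All 7 of the 7 B cell markers tested, which include Cd79a and Ms4a1, were called lower, and their list summed to between 175 CPM and 262 CPM in normoxia and between 39.4 CPM and 78.9 CPM in hyperoxia. T and NK cell markers were called lower for 3 of 4 tested, with sums of 35.3 CPM to 61.6 CPM in normoxia and 11.3 CPM to 27.1 CPM in hyperoxia. Markers of other cells also went this way, such as alveolar type 2 markers (6 of 7 tested called lower), while fibroblast markers gave 2 higher calls of 5. The part of lymphocyte content in the levels of Bcl2l11 and Bcl2 was not tested.

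Bid encodes the BH3-only protein that caspase-8 cleaves. It lies on chromosome 6 (120891930 to 120916853, minus strand), and its family relative Bcl2l13 lies on the opposite strand and touches an exon of it. The Bid level ran from 9.80 CPM to 18.6 CPM in normoxia (median 15.1 CPM) and from 17.2 CPM to 22.0 CPM in hyperoxia (median 19.6 CPM), on counts of 16 to 79 reads. The log2 fold change was 0.36 (95% interval −0.03 to 0.74, adjusted p = 0.173). The groups overlapped, and the interval reaches from no change to a rise of 1.67-fold. On the mean log2 CPM scale, the Bid difference was 0.49 in letters B to M and 0.20 in letters O to S. Bcl2l13 had a log2 fold change of 0.12 (adjusted p = 0.78).

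Bak1 encodes BAK, an effector that opens the outer mitochondrial membrane. It was counted 0, 3, 4, 3, 5, 14 and 2 times in Normoxia replicates 1 to 7 and 2, 6, 2, 7, 9 and 11 times in Hyperoxia replicates 1 to 6. These counts are mostly near the floor of 3 counts, and the count of 0 in Normoxia replicate 1 allows a level of up to 1.11 CPM. Bak1 did not pass the filter on low counts. In a fit of 19718 genes without that filter, its log2 fold change was 0.33 (SE 0.59, 95% interval −0.89 to 1.55, adjusted p = 0.75). A difference was not detectable at this depth, and the interval leaves room for a large change either way. Bak1 lies on chromosome 17 (27019810 to 27029009, minus strand), and an exon of it is touched by Ggnbp1 on the opposite strand.

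Casp8 encodes caspase-8, the initiator protease of the receptor route. It lies on chromosome 1 (58795374 to 58847503, plus strand). Normoxic libraries ran from 50.2 CPM to 67.2 CPM (median 58.2 CPM), and hyperoxic libraries from 44.2 CPM to 126 CPM (median 70.0 CPM). The hyperoxic libraries lay on both sides of the normoxic range, and the highest of them, Hyperoxia replicate 1, was the library that stood apart. The log2 fold change was 0.32 (95% interval −0.11 to 0.76, adjusted p = 0.291), and it was 0.12 (adjusted p = 0.615) without that library. The difference on the mean log2 CPM scale was 0.68 in letters B to M and −0.30 in letters O to S. The sign of the Casp8 difference was therefore not the same in the 2 letter sets.

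Xiap encodes an inhibitor that binds active caspases. It lies on the X chromosome (42059679 to 42109656, plus strand), with no overlapping gene. Its level ran from 198 CPM to 293 CPM in normoxia (median 228 CPM) and from 224 CPM to 305 CPM in hyperoxia (median 276 CPM). The log2 fold change was 0.17 (95% interval −0.10 to 0.44, adjusted p = 0.386), an interval whose upper end is a rise of 1.36-fold. Within B to M the difference in mean log2 CPM was 0.19, and within O to S it was −0.0023. In normoxia the O to S libraries (266 CPM and 293 CPM) were above all 5 B to M libraries (198 CPM to 229 CPM).

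**Figure D2:**
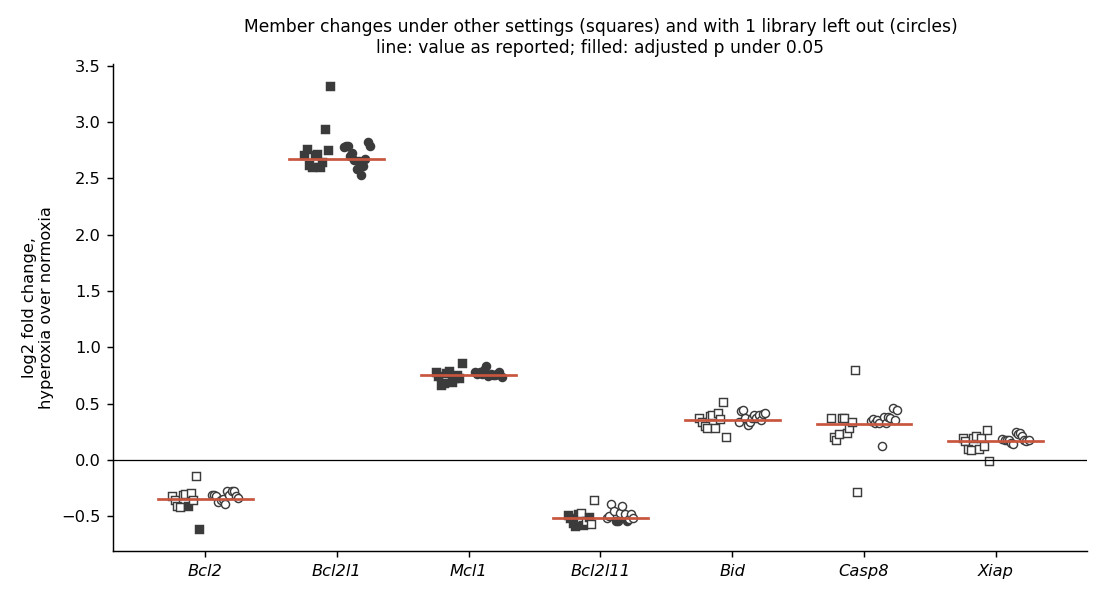
Log2 fold change (y axis, hyperoxia over normoxia) of the 7 tested members as reported (line), under 11 other settings (squares) and with each of the 13 libraries left out (circles), filled where the adjusted p was under 0.05. Bcl2l1 and Mcl1 passed in all 24, Bcl2l11 in 10, and Casp8 and Xiap each had 1 value below 0.

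The balance between members was also read within each library, as a ratio of raw counts, which no scaling between libraries can move. The ratio depends on how each transcript is captured, so its size is not a ratio of molecules, and its change between groups is what is described. Bcl2l1 counts over Bcl2 counts ran from 0.167 to 0.725 in normoxia (median 0.692) and from 2.48 to 6.25 in hyperoxia (median 4.83). Bcl2l1 over Bcl2l11 ran from 0.212 to 1.01 (median 0.658) and from 3.57 to 9.96 (median 5.97). The ratio of Bcl2l1 to Bcl2 was thus below 1 in every normoxic library and above 1 in every hyperoxic library. Because capture may differ between transcripts, 1 is not a point of balance, and it did not separate the groups in the other ratios. Mcl1 over Bcl2l11 ran from 4.41 to 8.27 (median 5.76) in normoxia and from 8.94 to 19.7 (median 14.2) in hyperoxia. Bcl2l1 over Mcl1 ran from 0.0408 to 0.162 (median 0.121) and from 0.257 to 0.660 (median 0.489). The groups did not overlap in any of these 4 ratios, which were formed with the members' own changes known and were not tested.

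**Figure D3:**
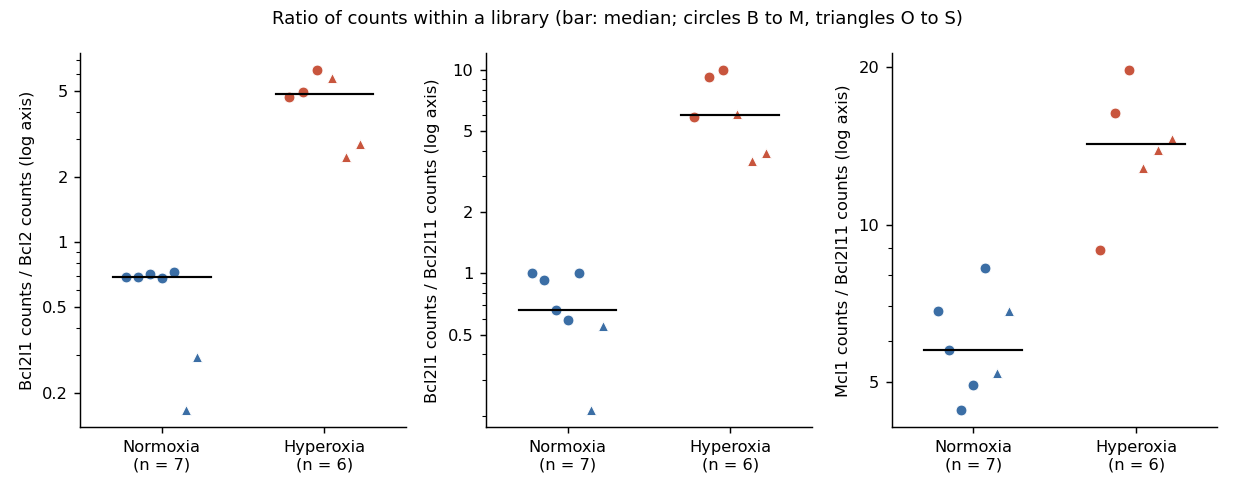
Raw counts of Bcl2l1 over Bcl2, Bcl2l1 over Bcl2l11 and Mcl1 over Bcl2l11 within each library (log axis), with a bar at the group median; circles are libraries lettered B to M and triangles those lettered O to S. Every hyperoxic library lies above every normoxic library in the 3 panels.

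Lists of BCL2, caspase, inhibitor-of-apoptosis (IAP) and partner genes held 62 genes of the table, of which 50 were tested, and the 7 tested members are among them. In hyperoxia 6 were called higher (among them Bcl2l1, Mcl1, Cycs, Vdac2 and Ripk1), 5 were called lower (Bcl2l11, Bmf, Bnip3l, Casp6 and Sept4), and 39 did not pass. These shares are near those over all genes tested (11.8% higher and 10.8% lower), so the counts are not a result about the family. The median log2 fold change was −0.16, against −0.03 over all genes tested. Groups did not overlap for 4 genes that were higher (Bcl2l1, Mcl1, Vdac2 and Cflar, the last named after its values were seen) and for 3 that were lower (Bmf, Bnip3l and Casp6), beside 5.6% and 5.23% of all genes tested. Cflar, which encodes the caspase-8 inhibitor c-FLIP, had a log2 fold change of 0.31 (adjusted p = 0.0933) and did not pass.

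Of 7 tested pro-survival genes, Bcl2l1 and Mcl1 were the calls, and the others tested were Bcl2, Bcl2l2 and the near-identical copies Bcl2a1a, Bcl2a1b and Bcl2a1d, whose counts are uncertain because reads may be split among them. Of 5 tested BH3-only genes, 2 were called lower. Bmf, whose product links the cytoskeleton to BCL2 proteins, ran from 4.37 CPM to 11.2 CPM in normoxia and from 2.43 CPM to 4.16 CPM in hyperoxia. The groups did not overlap, and the log2 fold change was −1.51 (SE 0.27, adjusted p = 7.77e-04). Bik, Hrk and Bbc3 did not pass the filter on low counts. Among 5 tested other BCL2 relatives, Bnip3l, a mitophagy receptor also known as NIX and abundant in maturing red cells, was lower in every hyperoxic library (41.8 CPM to 235 CPM, against 276 CPM to 378 CPM). Its log2 fold change was −1.09 (SE 0.27, adjusted p = 0.00882).

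No BAX-type effector passed. Of the 2 tested, edgeR called 0, 0 had an unadjusted p under 0.05, and DESeq2, limma-voom and limma on the deposited log10 values called 0. Bax, the more abundant, averaged 8.79 CPM (SD 3.66, n = 7) under normoxia and 9.39 CPM (SD 6.20, n = 6) under hyperoxia, with a log2 fold change of 0.07 (95% interval −0.76 to 0.91, adjusted p = 0.92).

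Among 3 initiator caspases, of which Casp8 was the most abundant, edgeR called 0, 1 had an unadjusted p under 0.05 (Casp9) and the other 3 tools called 0. Among the executioner caspases, Casp6 was called lower. Casp6 ran from 37.5 CPM to 53.0 CPM in normoxia and from 23.8 CPM to 34.4 CPM in hyperoxia, with no overlap and a log2 fold change of −0.70 (SE 0.15, adjusted p = 0.00267). Of 3 inflammatory and other caspases tested, edgeR and the other 3 tools called 0 and 0 had an unadjusted p under 0.05. The most abundant of them, Casp12, had a log2 fold change of −0.14 (adjusted p = 0.603), and Casp14 was at 0 in every library.

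Of 6 IAP genes tested, edgeR called 0. An unadjusted p was under 0.05 for 1, Birc5, the survivin gene of dividing cells (log2 fold change −0.76, adjusted p = 0.0595), and DESeq2, limma-voom and limma on the log10 values each called 1. Birc6 had a log2 fold change of 0.24 (adjusted p = 0.319). Among 4 tested genes of the IAP antagonist list, Sept4 was called lower (log2 fold change −1.02, SE 0.31, adjusted p = 0.0262). Counts per gene symbol do not tell the transcript forms of Sept4 apart. The Sept4 level ran from 42.1 CPM to 112 CPM in normoxia and from 10.7 CPM to 62.0 CPM in hyperoxia. The call was lost without Normoxia replicate 1 (adjusted p = 0.0569), Normoxia replicate 5 (0.0502) or Hyperoxia replicate 3 (0.0542), or when the fit included the letter set (0.0513). Within the letter sets the Sept4 log2 fold change was −1.32 in B to M only (adjusted p = 0.0983) and −0.45 in O to S only (adjusted p = 0.185).

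Among 7 apoptosome and mitochondrial death factor genes, 2 were called higher. Cycs, the gene of cytochrome c, had medians of 83.5 CPM (normoxia) and 168 CPM (hyperoxia), with overlapping groups and a log2 fold change of 1.01 (SE 0.22, adjusted p = 0.00322). Cytochrome c also carries electrons in respiration. Vdac2, an outer membrane channel that binds BAK, ran from 233 CPM to 292 CPM and from 311 CPM to 509 CPM, with no overlap and a log2 fold change of 0.51 (SE 0.14, adjusted p = 0.0129). Of 5 tested genes of the caspase-8 platform, Ripk1, a kinase that joins caspase-8 at death receptors, was called higher (log2 fold change 0.82, SE 0.22, adjusted p = 0.0149). Its groups overlapped, from 21.7 CPM to 40.1 CPM in normoxia and from 28.8 CPM to 76.1 CPM in hyperoxia. The Ripk1 log2 fold change was 1.01 in B to M only (adjusted p = 0.0772) and 0.50 in O to S only (adjusted p = 0.129).

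**Figure D4:**
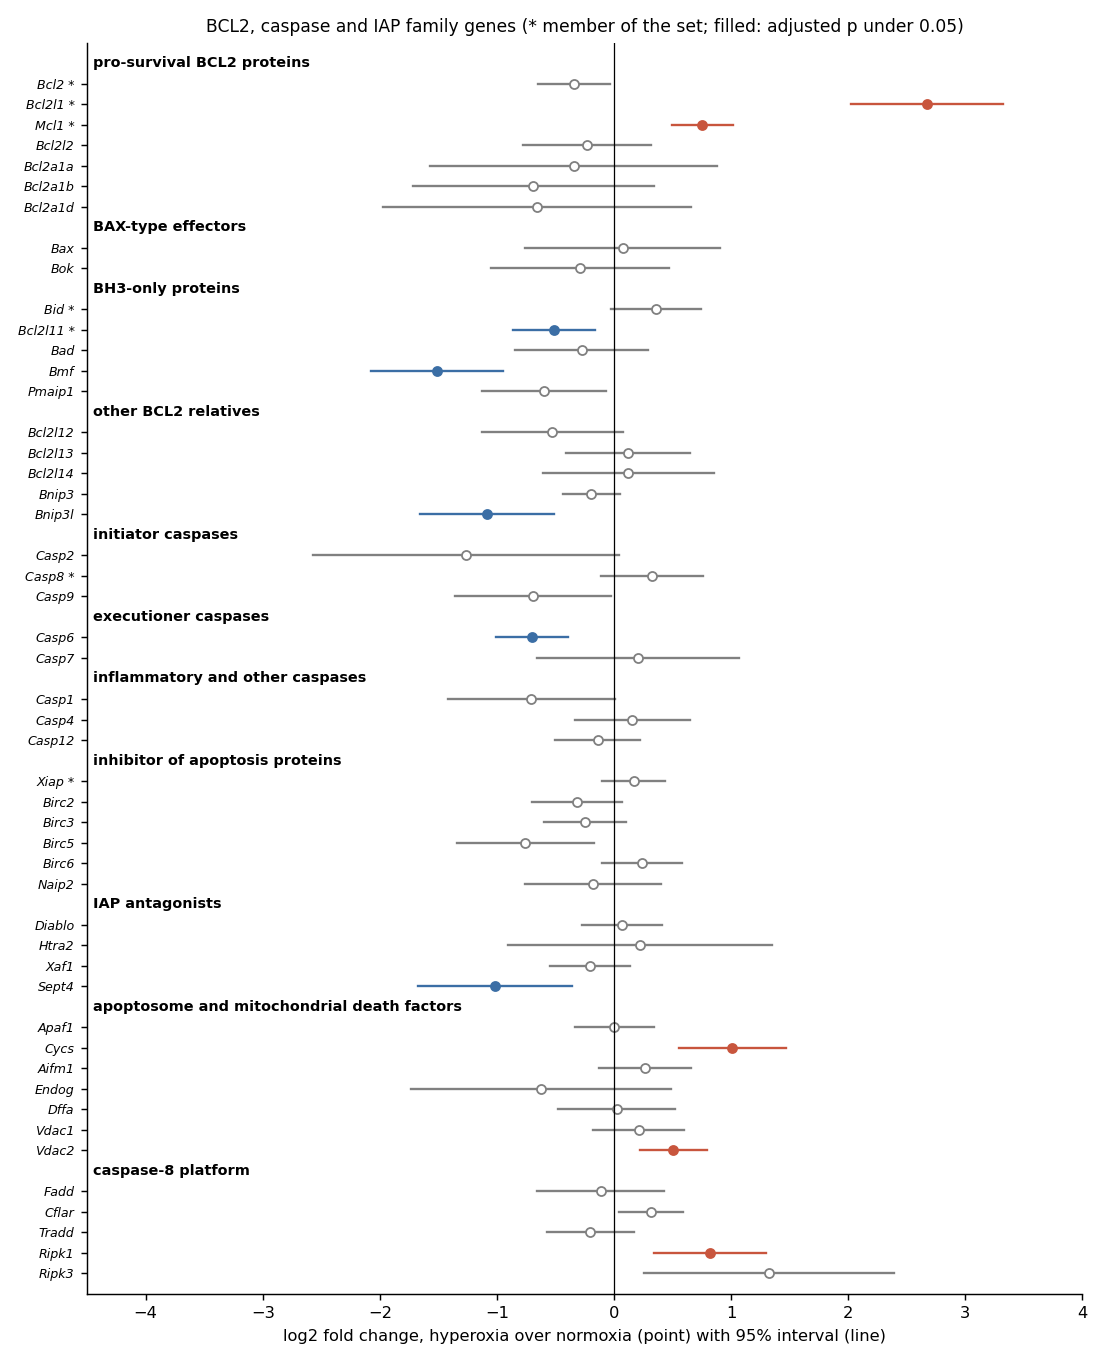
Log2 fold change (x axis, hyperoxia over normoxia, point) with its 95% interval (line) for tested genes of the 11 lists, with the 7 tested members starred; filled red is called higher, filled blue called lower and open grey not passed. Bcl2l1 lies at 2.68, to the right of all other genes shown, and Bmf at −1.51 is the lowest value shown.

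Markers of the cells that make up the lung also differed between the groups, and their part in the members' levels was not tested. Alveolar type 2 markers were called lower for 6 of 7 tested, and their sum ran from 13130 CPM to 22990 CPM in normoxia and from 2890 CPM to 6760 CPM in hyperoxia. Airway epithelial markers were called lower for 3 of 5, with 204 CPM in Hyperoxia replicate 1 at the low end. Alveolar type 1 markers were called lower for 1 of 6 and summed to between 1530 CPM and 1813 CPM, and between 860 CPM and 1635 CPM with Hyperoxia replicate 1 the lowest. Endothelial markers gave 1 call in each direction of 7 tested. Fibroblast markers were called higher for 2 of 5, monocyte and recruited macrophage markers lower for 3 of 6, and cardiac muscle markers lower for 3 of 6. Alveolar macrophage markers gave 1 higher and 2 lower calls of 6. Neutrophil markers gave 0 calls of 5 by edgeR, with 1 unadjusted p under 0.05 and 1 call by each of the other 3 tools. Mitotic genes gave 0 calls of 5 by edgeR, with 1 unadjusted p under 0.05 and 0 calls by the other 3 tools.

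The genes whose log2 CPM followed the called members most closely over the 13 libraries were listed as a description, since all share the difference between the groups. Tmem37 (Pearson r = 0.987, Spearman rho = 0.940) and Cdc34 (r = 0.979, rho = 0.907) were most like Bcl2l1. Eif1 (r = 0.979, rho = 0.863) and Ccng1 (r = 0.976, rho = 0.852) were most like Mcl1. For Bcl2l11 the closest were Gnal (r = 0.876, rho = 0.808) and Trpm3 (r = 0.865, rho = 0.890).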

How the data were processed

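Mouse lung Quant-seq libraries (7 normoxia, 6 hyperoxia) were analysed, grouped by their titles. Per the labels and methods, the authors pseudoaligned reads with kallisto (mm10) and deposited whole-number counts per gene symbol. The annotation and the use of strand are not given in the sources used here. The authors also deposited log10 values, which are log10 of CPM plus 1 (recomputed to within 4.4e-16). The submitters' notes name limma 3.54.2. No columns of either table were left unmapped, and 0 rows lacked a gene name.

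The deposited counts (1607111 to 4540288 per library) were fitted with edgeR 4.0.16 in R 4.3.3 (TMM scaling, filterByExpr, glmQLFit and glmQLFTest, Benjamini-Hochberg over 12496 genes, adjusted p threshold 0.05). CPM are TMM-scaled, except summed marker lists and Bak1, which use the library total. Standard errors come from the log2 fold change and F, and intervals are at 95%. The floor was 3 counts. Floors cover counting error only. Log2 CPM used a prior count of 2. On simulated libraries of 12488 genes the test recovered 5.97% of log2 changes of 0.5, 59.7% of 1 and 100% of 2, with 0.901% of calls false. The simulation gave every gene the same dispersion and changed only 67, 67 and 66 genes at these sizes. That is a far smaller share of genes than was called in the real libraries. The rates therefore describe that setting and are not the sensitivity or error rate of these data. Alternatives used DESeq2 1.42.0, limma 3.58.1, other scalings and filters, and subsets of libraries. Across 36 replicate pairs, all within a group, the lowest chi-square per gene was 3.79, so no library was a copy of another of its group.

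The members and lists were chosen with earlier results of these data known. Named genes were all 8 members, wider-family genes with an adjusted p under 0.05, and the most abundant gene of each list with none. The 2 genes most like each called member were also named. Some genes of the lists enter the counts but are not reported here by name. Locations are from GENCODE M21 (GRCm38) and promoters from RefSeq (GRCm38.p6), where all 8 members matched.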

Additional observations from a re-analysis of the deposited data

Results flagged for a closer look

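Of 36 groups of values examined (15 family genes, Bak1, the total count and the mean correlation, each in both groups), 4 held a library far from the rest by Dixon's ratio, its gap to the nearest library over the range of the group. Chance gives about 1 in 20, or 1.8. Normoxia replicate 4 was low for Bmf (4.37 CPM, ratio 0.616). Hyperoxia replicate 5 was high for Casp6 (34.4 CPM, ratio 0.68). Normoxia replicate 5 had the lowest total count (1607111, ratio 0.612). Hyperoxia replicate 1 had the lowest mean correlation with the other libraries (0.779, ratio 0.763). None of the 8 members held such a library in either group.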

How the results depend on the processing

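Bcl2l1 and Mcl1 kept their direction and passed the threshold in all 24 alternatives: Bcl2l1 from 2.60 to 3.32 and, with 1 library left out, from 2.54 to 2.83 (log2), and Mcl1 from 0.66 to 0.86 and from 0.73 to 0.84. Bcl2l11 no longer passed without a filter (−0.47, adjusted p = 0.082), with a replicate block (−0.55, 0.116), in the libraries lettered B to M only (−0.57, 0.203) and in those lettered O to S only (−0.35, 0.196). With 1 library left out it ran from −0.55 to −0.40 (adjusted p from 0.0166 to 0.102). Bcl2 passed with at least 10 counts in every library (−0.41, adjusted p = 0.046) and in O to S only (−0.61, 0.0282). Casp8 (−0.28) and Xiap (−0.015) turned negative in O to S only. The cause was not tested. Members called lower numbered 0 without a filter, with the block and in B to M only, 2 with at least 10 counts in every library, and 0 to 1 with 1 library left out. Wider-family genes called higher numbered 2 with the block and 3 in B to M only, and those called lower 3 and 0. With 1 library left out the lower calls ran from 3 (without Normoxia replicate 1) to 6. Of the 8 family genes called beside the members, 7 no longer passed in B to M only and 4 in O to S only, and 0 turned sign. All genes called higher numbered 718 with the block and 679 in B to M only, and those called lower 626 and 441. Same-numbered libraries deviated together at r from −0.33 to 0.27 (numbers 1 to 6), so the numbers were not taken as pairs. With limma on the deposited log10 values the split was 1097 higher and 1729 lower (38.8% higher, against 52.3% of 1473 and 1346), and the median of all genes was −0.16 against −0.03. At the depth of these libraries Bak1 did not pass the filter on low counts, and its interval without the filter was wide (−0.89 to 1.55).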
